A study of Mus musculus with 4 samples.

Results

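Genes that encode secreted matrix proteins of fat stroma are described here, 10 in number: Mgp, Thbs1, Thbs2, Sparc, Sparcl1, Postn, Fn1, Eln, Fbn1 and Ccn2. They are 10 of 32290 features measured by single-cell RNA sequencing in mouse adipose tissue, and they were chosen by name because earlier looks at these data had shown them to differ between genotypes or depots in stromal cells. The differences between KO and WT and between depots are therefore descriptions of selected genes.

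The study asked what loss of Tert, the catalytic subunit of telomerase, in endothelial cells (EC) does to other cells of the tissue. KO mice carried Tie2e-cre; TERTfl/fl; mTmG and WT mice carried Tie2e-cre; TERT+/+; mTmG, so that both genotypes held the Tie2e-driven Cre, which the study treated as specific to EC, and the mTmG reporter, a membrane tag that Cre switches from Tomato to GFP. All were male mice aged 7 months that had been on a high-fat diet (HFD) for 5 months. Subcutaneous (SC) and intraperitoneal (IP, visceral) fat gave 1 library each per genotype, 4 libraries in all, and how many mice stood behind a library was not given in the sources used here. Since Cre was directed to EC, stromal cells were not the cells in which the allele was meant to be lost. With 1 library per group no test between groups was possible, and every interval below is a 95% interval for counting error only.

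Matricellular proteins are secreted into the extracellular matrix and tune how cells attach, signal and lay down fibres rather than bearing load themselves. Thrombospondins, SPARC, periostin and CCN2 are of that kind, while fibronectin, elastin and fibrillin are structural, and matrix Gla protein holds back calcification and binds bone morphogenetic proteins. In fat these proteins are made mainly by adipose stromal cells (ASC), whose matrix is remodelled as the tissue grows in obesity.

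The 4 libraries held 4927 barcodes, of which 4119 were kept, and 751 were stromal-like by marker UMIs (unique molecular identifiers, each 1 captured transcript), hereafter stromal cells. A cell joined a class when it had at least 3 of that class's 6 markers and more than of any other class. The stromal markers were Pdgfra, Dcn, Lum, Dpt, Serpinf1 and Pcolce, and each was found in the stromal cells of every library. SC fat gave 100 WT and 180 KO stromal cells, with medians of 20294.5 and 7571.5 UMIs, and IP fat 273 WT and 198 KO cells, with medians of 23332 and 22093 UMIs, and 72 of the 751 sat at the threshold of 3 markers. Tert itself gave 2 to 9 UMIs per library over all kept cells and 0 in the 2, 2, 17 and 5 EC, so that the deletion could not be checked at this depth. Markers of the other 9 classes summed to at most 116 CPM (UMIs of a gene scaled to a class total of 1000000) in stromal cells, a value reached by the mural panel in WT IP, against 44.3 CPM for that panel in KO IP and 46.1 and 36.5 CPM in WT SC and KO SC. That was at most 0.563% of the panel's level in mural cells of the same library, with all 6 of its markers seen in IP and 1 at 0 in each SC library. Relative to the level in their own class, the endothelial panel reached 1.83% in KO IP and the dendritic panel 1.62% in WT SC.

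The KO SC library shared 93 barcodes with the WT IP library, whereas the other 5 pairs of libraries shared 0 or 1. In all 93 the KO SC copy was the shallower, with a median of 601 UMIs against 35392, and a median of 99.1% of the genes seen in it were also seen in its WT IP copy, against 84.4% in a different shared WT IP cell. Of the 180 KO SC stromal cells 58 (32.2%) carried such a barcode, but only 2.17% of the stromal UMIs of that library. In those 58 cells Mgp stood at 4930 CPM and Postn at 1572 CPM, closer to WT IP than to the rest of KO SC. Values of KO SC are therefore given with all cells and again with the 122 cells that were left, which had a median of 14724 UMIs.

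In all, 9 of the 10 members were highest in stromal cells in every library, among the 3 to 6 classes with at least 20 cells. The share of all genes highest in stromal cells is not given, and nothing is read from that count. Endothelial and mural cells fell short of 20 in every library, and in SC fat only lymphocytes stood beside stromal cells. Thbs1, whose product thrombospondin 1 binds CD36 and CD47 and activates latent TGF beta, was the exception among the members. In KO IP it stood at 668 CPM in neutrophils, 473 CPM in macrophages, 409 CPM in mesothelial cells and 226 CPM in stromal cells. The intervals of neutrophils and macrophages overlapped, so that their order was not resolved. A single one of the 21 macrophages held 97 of their 152 UMIs. Without the richest cell of each class macrophages fell to 180 CPM (135 to 234), beside 206 CPM (193 to 220) in stromal cells, while neutrophils (583 CPM) and mesothelial cells (333 CPM) stayed above stromal cells. In WT IP the stromal level of Thbs1 (563 CPM) was above that of macrophages (144 CPM). The 10 neutrophils of KO SC, too few for that ordering, all had a Thbs1 UMI and stood at 3036 CPM, against 88.1 CPM in stromal cells.

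Other classes held parts of the set. Fibronectin (Fn1) stood at 705 CPM in WT IP macrophages and 872 CPM in KO IP macrophages, against 3531 and 3240 CPM in the stromal cells of the same libraries. The 28 mesothelial cells of KO IP held Mgp at 1661 CPM and Sparc at 1826 CPM, with Sparcl1 at 0.659 CPM and no UMI of Thbs2 or Postn, where 3 counts of the class total would be 1.98 CPM. Mural cells, of which there were only 3 to 8 per library, held Sparcl1 at 3757, 3571, 1043 and 5072 CPM in WT SC, KO SC, WT IP and KO IP, above the stromal level in each. In WT IP a single mural cell held 65 of the 76 UMIs, and the per-cell median was 254 CPM, against 609 CPM in stromal cells. Mural cells of WT IP also held Eln at 755 CPM, against 296 CPM in stromal cells, but in the other libraries Eln was below the stromal level. Thbs1 stood at 348, 299 and 2045 CPM in mural cells of WT SC, KO SC and WT IP, against 118, 88.1 and 563 CPM in stromal cells. In KO IP it was at 208 CPM, against 226 CPM. Of the 2 EC of WT SC, 1 held 1162 Mgp UMIs, a single cell from which no class level can be read.

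Few lymphocytes, which are not known as a source of these proteins, had UMIs of the members. In T cells, with median depths from 7727 to 9243 UMIs, between 0.173% and 4.96% of cells had an Mgp UMI and between 0.777% and 5.79% a Sparc UMI. Single cells held much of what there was in KO SC, where 1 T cell had 34 of 52 Sparc UMIs and 1 had 59 of 72 Fn1 UMIs, and 1 B cell had 24 of 26 Sparcl1 UMIs. Where these UMIs came from was not tested. In stromal cells Sparc was seen in 99.0%, 100%, 97.8% and 98.5% of cells of the 4 libraries (WT SC, KO SC, WT IP and KO IP).

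**Figure D1:**
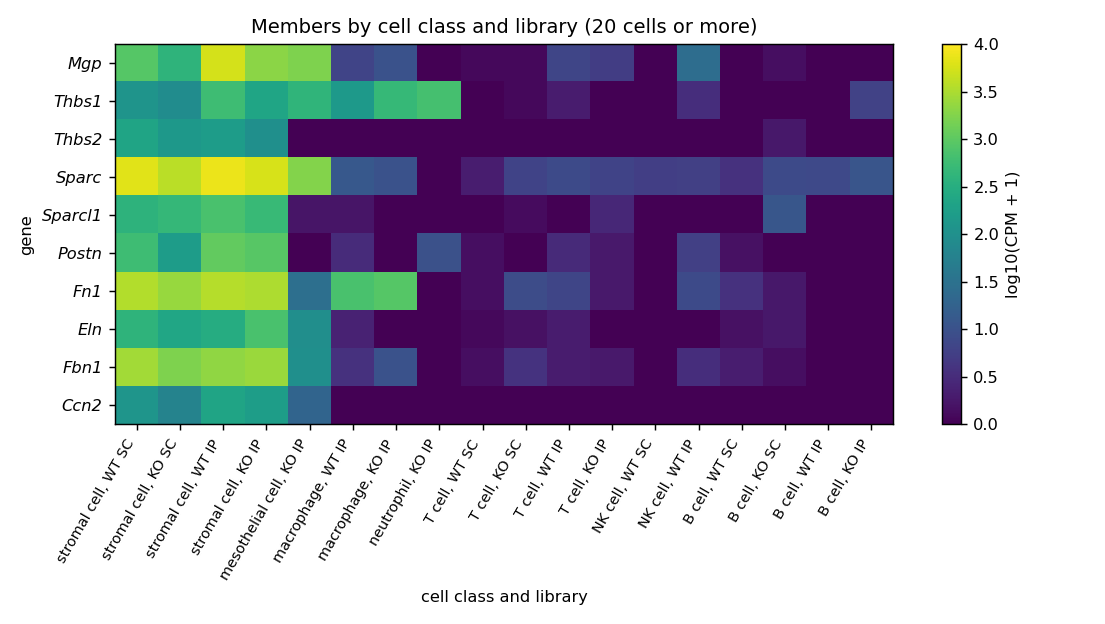
Level of each member (log10 of CPM + 1, colour) in every cell class with at least 20 cells, by library. The 4 stromal columns on the left are bright for all members, Thbs1 is also bright in macrophages and neutrophils of IP fat, Fn1 in macrophages, and Mgp, Sparc and Thbs1 in the 28 mesothelial cells of KO IP.

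Between KO and WT, most members were lower in KO stromal cells of SC fat, and Mgp and Thbs2 were lower in KO by 1.5-fold or more in both depots. In SC fat 7 of the 10 members were lower in KO by 1.5-fold or more, where 8.90% of the 9876 genes compared were (a gene was compared when both libraries together held at least 20 of its UMIs). Without the shared barcodes it was 8 members, against 9.37% of genes. None of the 10 was higher in KO SC by that fold, where 8.97% of genes were. These SC counts depended on how cells were weighted. With each cell given the same weight, 0 members were lower and 2 (Mgp and Thbs1) higher with all cells, where 16.4% and 21.8% of genes were, and 4 were lower and 0 higher without the shared barcodes, where 12.2% and 19.3% were. In IP fat 3 members (Mgp, Thbs1 and Thbs2) were lower, against 6.35% of 12291 genes, and 1 (Eln) was higher, against 10.4%.

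Lower in both depots were 2 members, where 1.06% of 9733 genes were, and without the shared barcodes 3, Thbs1 being added, where 1.13% were. With each cell given the same weight it was 0 with all cells and 1 without the shared barcodes. Shares of genes under those weights are not given for this count. None was higher in both, where 1.76% of genes were. Only 1 member, Eln, was lower in SC and higher in IP, a pattern of 0.791% of genes, and of 0.804% without the shared barcodes. The median log2 ratio of the members was -0.73 in SC and -0.37 in IP, beside 0.00338 and 0.059 over all genes compared. As the members had been selected on these contrasts, nothing is read from the distance to the background. A summed level cannot tell fewer cells of one kind from less RNA in each cell.

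**Figure D2:**
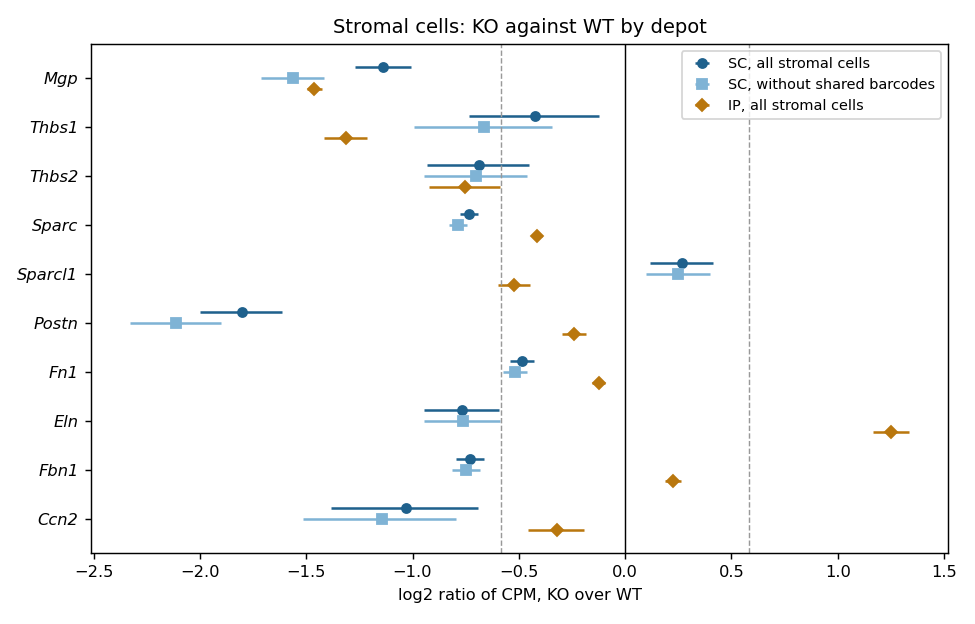
Log2 ratio of CPM in stromal cells, KO over WT, for each member in SC fat with all cells (circles), in SC fat without barcodes shared with WT IP (squares) and in IP fat (diamonds). Bars are 95% counting intervals and dashed lines mark 1.5-fold, and Postn lies furthest left in SC while Eln alone lies beyond the right line, in IP.

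Mgp (chr6:136872435-136875823, minus strand, GRCm38) encodes matrix Gla protein, a small vitamin K-dependent protein. Its stromal level was 871 CPM in WT and 396 CPM in KO of SC fat, and 5592 CPM in WT and 2030 CPM in KO of IP fat. Both IP libraries were above both SC libraries, and KO was below WT in each depot. The log2 ratio of KO to WT was -1.14 (-1.27 to -1.01) in SC, or -1.56 (-1.71 to -1.42) without the shared barcodes, and -1.46 (-1.50 to -1.43) in IP.

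The share of cells with an Mgp UMI differed by depot. A UMI was found in 24.0% of WT SC stromal cells and 36.7% of KO SC cells, the latter falling to 23.8% without the shared barcodes, and in 91.6% of WT IP and 77.3% of KO IP cells. With every cell thinned to 2000 UMIs the shares were 18.0%, 12.9%, 80.2% and 54.3%. The richest 10% of cells held 95.4% of Mgp UMIs in WT SC and 42.8% in WT IP. A single WT SC cell held 667 of the 1605 UMIs, and without the richest cell of each library the SC ratio was -0.89 (-1.05 to -0.73). In IP the per-cell median was 3114 CPM in WT and 495 CPM in KO.

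The Mgp difference in SC fat varied with depth and with the shared barcodes. Among stromal cells with at least 10000 UMIs it was 73.0 CPM in the 78 KO SC cells and 722 CPM in the 62 WT SC cells, a log2 ratio of -3.30. Among shallower cells without shared barcodes it was 1657 CPM in 44 KO cells and 2650 CPM in 38 WT cells, a log2 ratio of -0.68. KO was below WT in both strata. With each cell given the same weight, the log2 ratio in SC was 0.95 with all cells and -0.86 without the shared barcodes.

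Thbs1 (chr2:118111876-118127133, plus strand) and Thbs2 (chr17:14665500-14694235, minus strand) encode thrombospondins, secreted inhibitors of angiogenesis. Thbs1 stood at 118 CPM in WT and 88.1 CPM in KO of SC fat, and 563 CPM in WT and 226 CPM in KO of IP fat. Its log2 ratio of KO to WT was -0.42 (-0.73 to -0.12) in SC, -0.66 (-0.99 to -0.34) without the shared barcodes, and -1.31 (-1.42 to -1.21) in IP. The SC value rested on few cells: 20 of 100 WT SC cells and 14 of the 122 unshared KO SC cells had a UMI, and with cells thinned to 2000 UMIs its sign turned, to 0.54.

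Summed over stromal cells, Thbs2 was the member with the most even difference across depots. It stood at 215 CPM in WT and 133 CPM in KO of SC fat, and 164 CPM in WT and 97.2 CPM in KO of IP fat. The log2 ratio of KO to WT was -0.69 (-0.93 to -0.45) in SC, -0.70 without the shared barcodes, and -0.75 (-0.92 to -0.59) in IP. Among the 47 KO and 51 WT cells of IP under 10000 UMIs, Thbs2 held 14 and 17 UMIs, a log2 ratio of -0.17 (-1.31 to 0.93). It was seen in 65.0% of WT SC and 62.3% of unshared KO SC cells, and in 69.2% of WT IP and 54.5% of KO IP cells, while none of 1158 KO SC T cells had a Thbs2 UMI, where 3 cells would be 0.259%, nor any T cell of the other libraries.

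Sparc (chr11:55394500-55423183, minus strand) encodes a collagen-binding protein that restrains adipocyte formation, and Sparcl1 (chr5:104079111-104113733, minus strand) its relative hevin. Sparc stood at 6519 CPM in WT and 3921 CPM in KO of SC fat, and 7723 CPM in WT and 5801 CPM in KO of IP fat. It was lower in KO in both depots, by -0.73 (-0.78 to -0.69) on the log2 scale in SC and -0.41 (-0.43 to -0.39) in IP. Without the shared barcodes the SC value was -0.79, so that the IP difference remained the smaller, below 1.5-fold.

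Sparcl1 did not follow Sparc. It stood at 378 CPM in WT and 454 CPM in KO of SC fat (450 CPM without the shared barcodes), and 720 CPM in WT and 501 CPM in KO of IP fat. The log2 ratio of KO to WT was 0.27 (0.12 to 0.42) in SC and -0.52 (-0.60 to -0.45) in IP, neither past 1.5-fold. Thinned to 2000 UMIs the SC ratio was -0.05, and in SC cells under 10000 UMIs without shared barcodes it was -0.63.

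Postn (chr3:54361109-54391037, plus strand) encodes periostin, which binds integrins and cross-links collagen. Its level was 569 CPM in WT and 163 CPM in KO of SC fat, and 1085 CPM in WT and 919 CPM in KO of IP fat. KO SC stood apart from the other 3 libraries, and the log2 ratio of KO to WT in SC, -1.80 (-2.0 to -1.61), was the lowest of the 10 members. Without the shared barcodes KO SC stood at 131 CPM and the ratio was -2.11 (-2.33 to -1.90). In IP the ratio was -0.24 (-0.30 to -0.18), but among the 47 KO and 51 WT cells under 10000 UMIs it was 0.94 (0.51 to 1.39), at 698 and 362 CPM.

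Fewer SC cells held Postn at all in KO. A UMI was seen in 49.0% of WT SC cells, in 30% of KO SC cells and in 17.2% of those left without shared barcodes. Thinned to 2000 UMIs per cell the shares in SC were 29.2% in WT and 7.76% in KO. In IP fat they were 83.5% in WT and 71.2% in KO before thinning. In T cells the share ran from 0 of 1158 in KO SC, where 3 cells would be 0.259%, to 1.65% in WT IP.

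**Figure D3:**
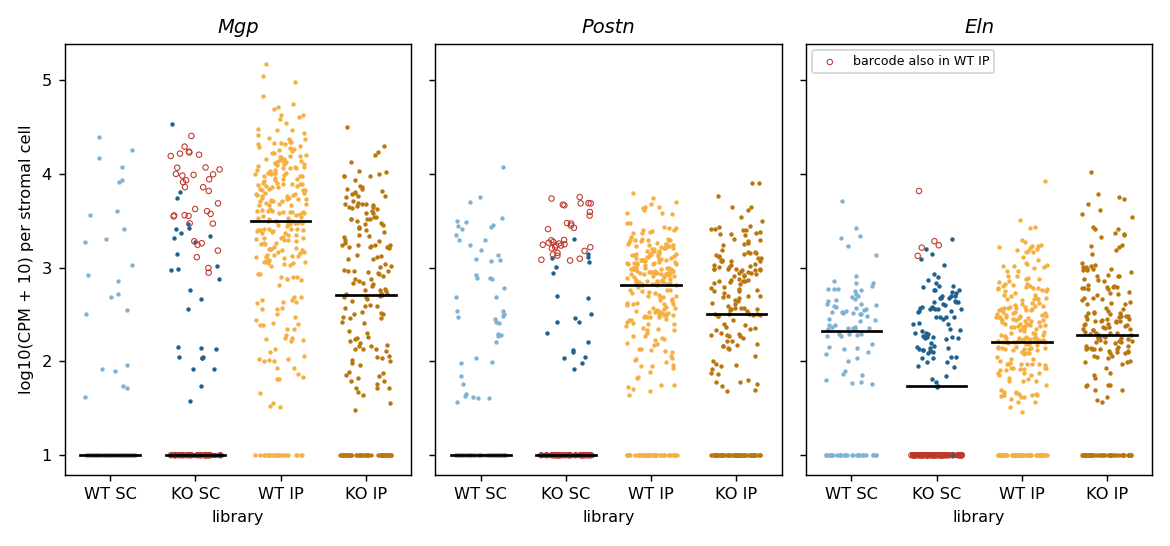
Level of Mgp, Postn and Eln in each stromal cell (log10 of CPM + 10) by library, with the median over all cells of a library as a black line and cells without a UMI at 1. Open red circles are KO SC cells whose barcode was also in WT IP, and of the KO SC cells with a UMI only 29 of 66 for Mgp and 21 of 54 for Postn are not among them.

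The start region is shown for Postn and Thbs2, since Postn had the lowest ratio in SC and Thbs2 was lower by 1.5-fold or more in both depots. Promoter sequence in RefSeq (GRCm38.p6) matched 4 of the 10 members, Thbs2, Sparc, Postn and Fbn1, with 2 starts for Postn. The 250 bases before each start are given 5′ to 3′ on the gene's strand, with matches on either strand to GGAATG (bound by TEAD factors), to TGANTCA (by AP-1), to CAGAC (by SMAD factors) or to TATAAA (the TATA box) in capitals. Over all 32851 promoters of that length these letters were found in 12.6%, 6.75%, 42.2% and 12.4%.
Postn, chr3:54360857-54361106, plus strand: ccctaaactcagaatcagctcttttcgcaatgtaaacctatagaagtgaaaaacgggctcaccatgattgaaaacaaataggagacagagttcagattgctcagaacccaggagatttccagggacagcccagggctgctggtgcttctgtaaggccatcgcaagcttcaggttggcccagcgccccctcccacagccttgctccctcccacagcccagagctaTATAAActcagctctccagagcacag
Thbs2, chr17:14694263-14694512, minus strand: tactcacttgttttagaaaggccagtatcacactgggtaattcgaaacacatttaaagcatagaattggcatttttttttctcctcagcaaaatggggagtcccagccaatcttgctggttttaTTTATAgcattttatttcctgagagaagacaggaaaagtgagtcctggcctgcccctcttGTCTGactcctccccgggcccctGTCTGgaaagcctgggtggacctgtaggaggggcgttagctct
The capitals in this Postn window are TATAAA on the gene's strand, starting 26 bases before the start. Those in Thbs2 are CAGAC on the other strand, at 66 and 43 bases, and TATAAA on the other strand, at 126 bases. The Postn window that is not printed, chr3:54359017-54359266, held CAGAC on the gene's strand, at 191 bases. None of the TEAD or AP-1 letters were found in these windows or in those of Sparc and Fbn1, which says nothing of the factors.

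Fn1 (chr1:71585520-71653200, minus strand) encodes fibronectin, the scaffold on which other matrix proteins assemble. It stood at 3398 CPM in WT and 2430 CPM in KO of SC fat, and 3531 CPM in WT and 3240 CPM in KO of IP fat. The WT libraries of the depots were nearly equal, with a log2 ratio of IP to SC of 0.06 (0.01 to 0.10). KO was below WT by -0.48 (-0.54 to -0.43) on the log2 scale in SC, -0.52 without the shared barcodes, and by -0.12 (-0.15 to -0.09) in IP, neither past 1.5-fold.

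Eln (chr5:134702593-134747323, minus strand) encodes elastin, the core of elastic fibres, and Fbn1 (chr2:125300594-125507993, minus strand) fibrillin 1, the microfibril on which elastin is laid down. Eln stood at 402 CPM in WT and 236 CPM in KO of SC fat with or without the shared barcodes, and 296 CPM in WT and 704 CPM in KO of IP fat. KO was the lower library in SC and the higher in IP, with log2 ratios of -0.77 (-0.95 to -0.59) and 1.25 (1.17 to 1.34). The share of cells with an Eln UMI did not follow in IP, at 77.3% in WT and 76.8% in KO.

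The Eln difference in IP was carried by cells rich in it. In IP fat the richest 10% of cells held 66.3% of the KO and 48.2% of the WT Eln UMIs, and a single KO IP cell held 513 of 3064. Without the richest cell of each library the ratio was 1.06 (0.97 to 1.15) in IP and -0.53 (-0.72 to -0.34) in SC. Among IP stromal cells with at least 10000 UMIs it was 1.31, but among the 47 KO and 51 WT cells below that depth it was -0.77, at 242 and 415 CPM. In SC fat the shallow cells without shared barcodes also had the other sign, 0.37 with an interval from -0.15.

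Fbn1 followed Eln in direction with a smaller difference. It stood at 2809 CPM in WT and 1693 CPM in KO of SC fat, and 2151 CPM in WT and 2515 CPM in KO of IP fat, with log2 ratios of KO to WT of -0.73 (-0.80 to -0.67) in SC, -0.75 without the shared barcodes, and 0.23 (0.19 to 0.26) in IP.

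Ccn2 (chr10:24595442-24598683, plus strand) encodes connective tissue growth factor, a target of YAP and TGF beta signalling. It stood at 122 CPM in WT and 59.7 CPM in KO of SC fat, and 213 CPM in WT and 170 CPM in KO of IP fat. The log2 ratio of KO to WT was -1.03 (-1.38 to -0.69) in SC, -1.14 without the shared barcodes, and -0.32 (-0.45 to -0.19) in IP. A few cells held most of it, the richest 10% having 72.0% to 82.3% of its UMIs in each of the 4 libraries. Thinned to 2000 UMIs the IP ratio turned to 0.29, and without the richest cell of each library it was -0.50. With each cell given the same weight the SC ratio was 0.33, or -0.76 without the shared barcodes.

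Between depots, 5 members were higher in IP than in SC by 1.5-fold or more in WT (Mgp, Thbs1, Sparcl1, Postn and Ccn2), where 19.2% of 11719 genes were, and 5 in KO (Mgp, Thbs1, Postn, Eln and Ccn2), where 21.0% of 11353 genes were. Without the shared barcodes it was 7 in KO, against 21.5% of genes, Sparc and Fbn1 being added with log2 ratios of 0.62 and 0.59, just past the threshold. In both genotypes 4 were higher, against 9.72% of genes, or 9.88% without the shared barcodes. With each cell given the same weight it was 0 with all cells and 3 without the shared barcodes. Shares of genes under those weights are not given for this count. None was lower in IP by that fold in WT, in KO or in both, where 14.6%, 12.9% and 7.51% of genes were. The 4 were Mgp, Thbs1, Postn and Ccn2, with log2 ratios in WT of 2.68 (2.61 to 2.76), 2.25 (2.05 to 2.45), 0.93 (0.84 to 1.03) and 0.80 (0.59 to 1.01). Among cells under 10000 UMIs these were 2.25, 2.15, -0.38 and 0.0055 in WT, and -0.34, -1.67, 1.35 and 0.13 in KO with all cells. Without the shared barcodes, shallow KO SC cells stood at 1657, 106, 67.6 and 71.9 CPM, beside 1661, 56.3, 698 and 107 CPM in KO IP. Among cells with at least 10000 UMIs each of the 4 was higher in IP by 1.5-fold or more in both genotypes. Not all of them were past it within each stromal state in WT, as given below. These contrasts and those of KO with WT share the same 4 libraries.

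In KO the depot ratio of Postn was 2.49 (2.32 to 2.68), and 2.80 without the shared barcodes, the KO SC level being the low one. Eln was lower in IP than SC in WT, at -0.44 (-0.57 to -0.32), and higher in KO, at 1.58 (1.43 to 1.73). Fbn1 had the same turn, from -0.39 in WT to 0.57 in KO. Whether a depot ratio differed between genotypes was not tested.

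Stromal cells were then divided by 6 markers of early progenitors (Pi16, Dpp4, Cd55, Sema3c, Anxa3 and Efhd1) and 6 of preadipocytes (Pparg, Fabp4, Lpl, Cd36, Icam1 and G0s2), a cell going to the side with more of its markers detected. In SC fat the progenitor side held 61.0% of WT and 57.8% of KO stromal cells (75.4% without shared barcodes), and in IP fat 29.3% of WT and 42.9% of KO cells. Fn1 and Fbn1 were higher on the progenitor side by 1.5-fold or more in all 4 libraries, as were 3.15% of 7279 genes, and 3.15% without the shared barcodes. Mgp and Sparcl1 were lower there in all 4, as were 1.95% of genes, or 1.96% without the shared barcodes.

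In WT the sides were further apart in SC than in IP fat for Mgp and Sparcl1. On the progenitor and preadipocyte sides Sparcl1 stood at 8.91 and 1282 CPM in WT SC, and at 356 and 895 CPM in WT IP. It was seen in 5 of 61 progenitor-side cells and 31 of 32 preadipocyte-side cells of WT SC, and in 5 of 92 and 22 of 23 in KO SC without shared barcodes. Mgp stood at 172 and 2834 CPM in WT SC, and at 3334 and 6426 CPM in WT IP. Fbn1 ran the other way, at 3671 and 996 CPM in WT SC and at 4210 and 1209 CPM in WT IP. Depot ratios also differed by side. On the preadipocyte side the log2 ratio of IP to SC in WT was 1.18 for Mgp and 0.79 for Thbs1. There it was 0.22 for Postn and 0.28 (-0.06 to 0.65) for Ccn2, neither past 1.5-fold. On the progenitor side these 4 were at 4.28, 4.0, 1.42 and 1.41. Sparcl1 was at -0.52 on the preadipocyte and 5.26 on the progenitor side in WT, and at -1.18 and 3.67 in KO with all cells.

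**Figure D4:**
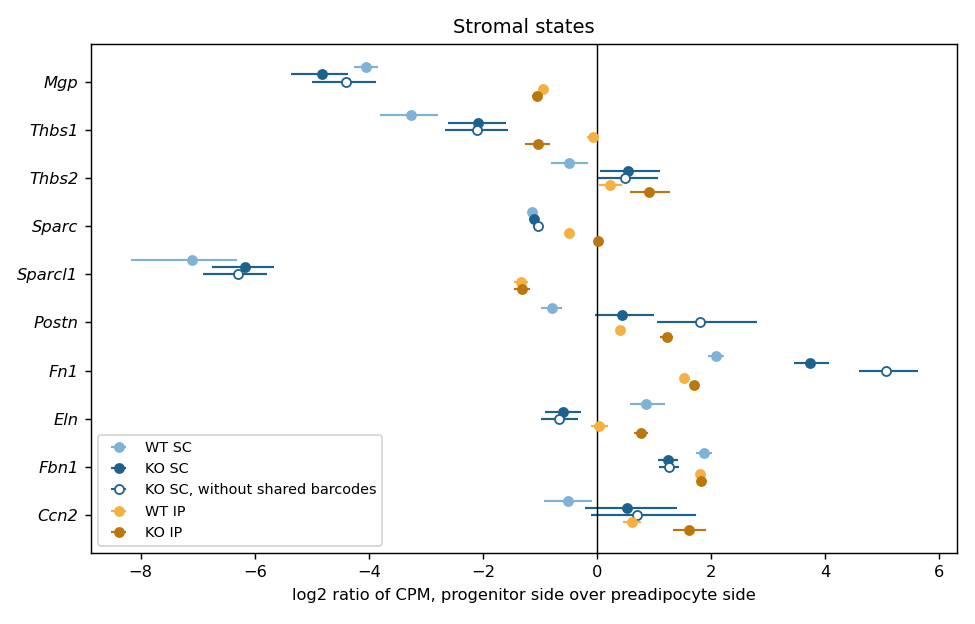
Log2 ratio of CPM on the progenitor side over the preadipocyte side of stromal cells for each member, by library, with 95% counting intervals. Mgp and Sparcl1 lie left of 0 and Fn1 and Fbn1 right of 0 in every library, while Postn, Thbs2 and Ccn2 lie left of 0 only in WT SC.

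On both sides KO was below WT for Mgp in both depots. In IP its log2 ratio was -1.66 on the progenitor side and -1.55 on the preadipocyte side, and in SC without shared barcodes it was -2.68 and -2.33. The SC cells on neither side went the other way, at 3235 CPM in 7 unshared KO cells and 480 CPM in 7 WT cells, a log2 ratio of 2.74 (2.36 to 3.16). Those 7 KO cells held 262 of the 498 Mgp UMIs of unshared KO SC stromal cells. Thbs2 was also below WT on both sides of both depots, from -0.37 on the SC progenitor side to -1.36 on the SC preadipocyte side without shared barcodes. In IP Thbs2 was at -0.49 on the progenitor side and -1.17 on the preadipocyte side. It was thus not past 1.5-fold on the progenitor side of either depot. Postn in SC was at -1.87 on the progenitor side and -4.48 (-5.46 to -3.75) on the preadipocyte side, where 2 of 23 unshared KO cells and 14 of 32 WT cells had a UMI. The KO value there rested on 13 Postn UMIs, and the median depth was 15291 UMIs in KO and 8271 in WT. In SC cells on neither side Postn was at 0.37 (-0.22 to 0.95), with 45 UMIs in unshared KO and 60 in WT.

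Some ratios over all stromal cells did not describe both sides. Fn1 in SC without shared barcodes was at -0.45 on the progenitor side and -3.43 (-4.01 to -2.94) on the preadipocyte side, where it stood at 91.7 CPM in KO and 1002 CPM in WT. In IP it was at -0.41 and -0.59, both below the value of -0.12 over all stromal cells, and at 0.12 (0.03 to 0.20) in cells on neither side. Ccn2 was further below WT on the preadipocyte side, at -2.09 in SC without shared barcodes and -1.10 in IP, than on the progenitor side, at -0.86 and -0.10. Eln in SC was at -1.02 on the progenitor side and 0.52 (0.13 to 0.90) on the preadipocyte side without shared barcodes, whereas in IP it was higher in KO on both, at 1.58 and 0.86. Fbn1 in IP, higher in KO over all stromal cells, was at -0.11 and -0.14 on the sides. In the 41 KO and 40 WT cells of IP fat on neither side it was at 0.43 (0.32 to 0.55). The share of cells on the progenitor side, where Fbn1 was higher, was 42.9% in KO and 29.3% in WT, and its part in the Fbn1 value was not tested. Postn in IP was at -0.05 (-0.13 to 0.03) on the progenitor side and -0.87 (-0.98 to -0.76) on the preadipocyte side. Sparcl1 in IP, at -0.52 over all stromal cells, was at -0.15 (-0.31 to 0.006) and -0.18 (-0.27 to -0.08) on the sides. In IP cells on neither side Sparcl1 was at -0.94.

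Other genes of the same biology were taken from lists set by name, beside which stand the shares over all genes compared, 8.90% lower and 8.97% higher in KO SC and 6.35% and 10.4% in KO IP. Of 16 further matricellular genes, 12 were compared in each depot, with 3 lower and 1 higher in KO SC and 2 lower and 2 higher in KO IP. Tnc (tenascin C) was the lowest in both, with 49 UMIs in WT SC and 2 in KO SC, and 88.1 and 16.3 CPM in WT and KO of IP fat, a log2 ratio of -2.42. Thbs4 was the highest in SC, at 3 and 17 UMIs in WT and KO with a log2 ratio of 2.42 and an interval from 0.81. Tgfbi, an integrin-binding protein induced by TGF beta, was the highest in IP, at 24.1 CPM in WT and 71.7 CPM in KO.

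Of 16 elastic fibre partners, 3 of 14 compared were lower in KO SC (6 without shared barcodes) and none was higher, and in IP 1 of 16 was lower and 2 were higher. The median log2 ratio was -0.42 in SC and 0.28 in IP, the same signs as Eln. Mfap4, a microfibril-associated glycoprotein, was the lowest in SC, at 59.7 CPM in WT and 9.85 CPM in KO, and stood at 98.2 CPM in WT IP and 175 CPM in KO IP. Ltbp1, which tethers latent TGF beta, was the highest in SC with a log2 ratio of 0.29. In IP Mfap2 was the lowest, at -0.81, and Fbn2, another fibrillin, the highest, at 0.88.

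Of 12 genes that respond to TGF beta, YAP or SRF, 4 were lower and 1 higher in KO SC, and 5 were lower and none higher in KO IP. Tagln, an actin-binding protein of contractile cells, was the lowest in both, at 26.6 CPM in WT and 4.06 CPM in KO of SC fat, and 140 CPM in WT and 16.3 CPM in KO of IP fat. The mural panel in IP stromal cells was also lower in KO, as given above, and its part in the Tagln values was not tested. Acta2 belongs to both that panel and this list, so that they are not independent. Ankrd1 was the highest in SC, at 7 and 60 UMIs in WT and KO, and Amotl2 the highest in IP, at 0.57.

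Few receptors and no Mgp partners were past 1.5-fold. Of 15 receptors, 2 of 13 compared were lower in KO SC (1 of 12 without shared barcodes) and none was higher, and 2 of 14 were lower and 1 higher in KO IP. Sdc1 was the lowest in SC, at 14 and 6 UMIs in WT and KO, or Itgb5 at -0.59 without shared barcodes, and Sdc2 was the highest, at 0.04. In IP Cd36, the fatty acid and thrombospondin receptor, was the lowest, at 64 and 3 UMIs, and Stab1 the highest, at 12 and 17 UMIs. Cd36 is also a marker of the preadipocyte side, which held 56.0% of WT IP and 36.4% of KO IP stromal cells. The part of that share in the Cd36 value was not tested. None of the 9 genes of vitamin K carboxylation and bone morphogenetic protein signalling was past 1.5-fold in either depot, from -0.43 (Gas6) to 0.33 (Bmp2) in SC and from -0.23 (Vkorc1) to 0.37 (Gas6) in IP.

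Immediate early and dissociation genes, a sign of handling of cells, differed between the same libraries. Of 13, none was lower and 5 were higher in KO SC (6 without shared barcodes), with a median log2 ratio of 0.35, Fosb lowest at 0.01 and Ier2 highest at 0.85. In KO IP 2 were lower and none higher, with a median of -0.35, Hspa1a lowest at -1.80 and Egr1 highest at 0.50. Their part in the members' values was not tested.

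The genes whose level followed each member most closely over 18 pairs of class and library with at least 20 cells were mostly other stromal genes, among 7104 genes that reached 50 CPM. For Sparc they were Col1a1 (r = 0.997) and Lama4 (r = 0.997), for Postn Igsf10 (r = 0.995) and Col15a1 (r = 0.994), for Mgp Ror1 (r = 0.990), for Thbs2 Mmp3 (r = 0.998) and Aldh1a3 (r = 0.998), and for Eln Runx1t1 (r = 0.998) and Gabra3 (r = 0.997). For Sparcl1 they were Gpnmb (r = 0.996) and Ccl11 (r = 0.995), for Fbn1 Pcsk5 (r = 0.998) and Dpysl3 (r = 0.998), and for Ccn2 Cpxm1 (r = 0.998) and Prrx2 (r = 0.998). The values were lowest for Fn1, with Nav1 (r = 0.984) and Gm17268 (r = 0.981), and Thbs1, with App (r = 0.971) and Ifitm2 (r = 0.970), the members also found in leukocytes. The pairs share libraries, and the 4 stromal ones lie far from the rest, so that r mostly reflects being on in stromal cells.

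Of 740 member ratios under alternative treatments of the cells, 576 lay within the counting interval of the reported value, 150 lay outside it with the same sign, and 14 had the other sign. Some alternatives, such as another minimum of UMIs for a gene to be compared, cannot move a member's ratio. Part of the 576 was therefore fixed in advance, and the count does not measure how stable the ratios are. UMI counts of 3' libraries do not scale with transcript length, and no order of levels between members is given. No member overlaps another gene on its own strand, and 6 overlap one on the other strand (Thbs1, Sparcl1, Fn1, Eln, Fbn1 and Ccn2), whose reads cannot be told apart here, since whether counting used strand was not given in the sources used here.

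**Figure D5:**
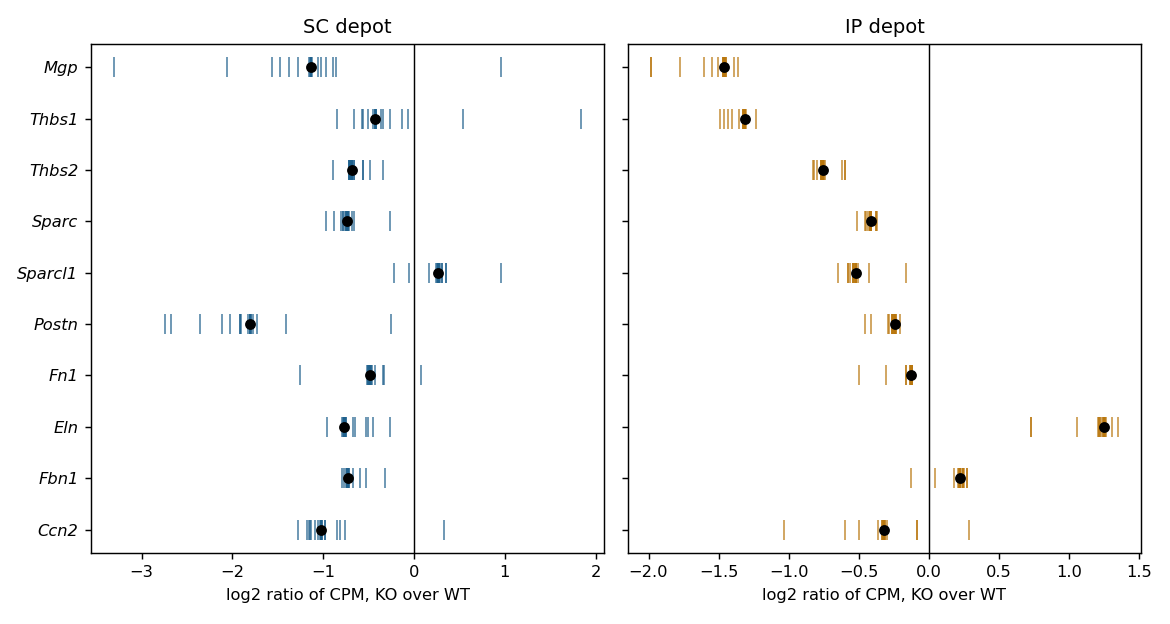
Log2 ratio of CPM in stromal cells, KO over WT, as reported (black points) and under each alternative treatment of the same cells (ticks), in SC fat on the left and IP fat on the right. Thbs2, Sparc, Postn, Eln and Fbn1 keep their sign throughout in SC, whereas ticks of Mgp, Thbs1, Sparcl1, Fn1 and Ccn2 fall on both sides of 0.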

How the data were processed

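Cells from SC and IP adipose tissue of WT and KO mice were profiled with 3' 10x Genomics chemistry, and the labels name both cells and nuclei. The authors deposited per library a matrix of UMI counts, not normalized, made per the file headers with Cell Ranger 7.0.0. The submitters' processing notes also name STAR 2.6 and mm10. Each library held 700 to 2115 barcodes and 10015201 to 15533961 UMIs.

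Cells needed 200 genes or more and a mitochondrial share of UMIs no higher than 25%. Scrublet (scanpy 1.11.5, at a doublet rate set to 5%) marked 17 of 4136 (0.411%), too few to count as a working doublet call, and these were removed, so that doublets may remain. Of 4119 kept cells, 369 had no class. Counts were summed over the stromal cells of a library and divided by their total (CPM). Log2 ratios add 0.5 UMI to each sum, with exact conditional binomial intervals, while levels have exact Poisson and shares exact Clopper-Pearson intervals, all at 95% and for counting error only. Beside a count of 0 the text gives what 3 counts would be, which limits UMIs seen and not expression. Calls are folds of 1.5, not tests. On simulated counts for KO against WT in SC fat over 9680 genes, 96.0% of intervals of unchanged genes held the true value. Those counts were Poisson draws from summed UMIs, the model that the intervals assume, so that this checks the calculation only. Clustering of UMIs in single cells and the spread between mice were not simulated.

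The members and the gene lists were chosen with earlier results of these data known. Named genes were the 10 members, the lowest and highest gene of each of 6 lists per depot, and the 2 genes most like each member by Pearson r of log2(CPM + 10). Gene positions are from GENCODE vM21 and promoters from RefSeq. In the last 1000 bases of transcripts, at most 3.76% of 25-base words of a member (Fn1) were shared with another gene. Alternatives, 19 in number, changed filters, class rules, scaling, weighting of cells and depth, and 4 of them were chosen after seeing the data. One gene among those most like the members in level is not reported here.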

Additional observations from a re-analysis of the deposited data

Results flagged for a closer look

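In stromal cells 3 members had opposite directions in the depots, each with counting intervals that excluded 0, and the difference between depots was not tested. The log2 ratio of KO to WT was 0.27 in SC and -0.52 in IP for Sparcl1, -0.77 in SC and 1.25 in IP for Eln, and -0.73 in SC and 0.23 in IP for Fbn1. The Fbn1 value in IP was -0.13 with stromal states weighted equally, the Sparcl1 value in SC was -0.05 with cells thinned to 2000 UMIs, and the Eln value in IP was -0.77 among cells under 10000 UMIs. In IP cells on neither the progenitor nor the preadipocyte side Fbn1 was at 0.43 and Sparcl1 at -0.94. On the progenitor side Sparcl1 in IP was at -0.15 (-0.31 to 0.006), and on the preadipocyte side at -0.18.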

How the results depend on the processing

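With 1 library per group the spread between mice is unknown, and genotype, library and any batch cannot be told apart. Depth differed most in SC, where 102 of 180 KO and 38 of 100 WT stromal cells had under 10000 UMIs. No paired analysis was possible because each group had 1 library. Counts of members past 1.5-fold changed as follows. With each cell weighted equally, 0 members were lower in KO SC and 2 were higher (16.4% and 21.8% of genes), 0 were lower in both depots and 0 were higher in IP in both genotypes. Weighted so without the shared barcodes, 4 were lower in KO SC and 1 in both depots. Thinned to 2000 UMIs, 1 was lower in both depots. Shares of genes under these settings are given only for KO against WT in SC, so that the other counts have no background beside them. The shallow shared cells count fully under equal weights: Mgp in SC was then at 0.95, and at -0.86 without them. Signs that turned under equal weights were Thbs1 (1.84), Fn1 (0.078) and Ccn2 (0.33) for KO against WT in SC, Thbs1 (-0.58) and Fn1 (-0.26) for IP against SC in KO, and Fn1 (-0.063) in WT, with or without the shared barcodes, and Sparcl1 (-0.22) in SC without them. Thinned to 2000 UMIs, Thbs1 (0.54) and Sparcl1 (-0.054) in SC, Ccn2 (0.29) in IP, and Thbs2 for IP against SC in WT (0.0086) turned. With states weighted equally, Fbn1 in IP was -0.13. The cause of these turns was not tested. In IP, Mgp ran from -1.98 to -1.36, Thbs1 from -1.49 to -1.23, Thbs2 from -0.83 to -0.60 and Eln from 0.73 to 1.35 over the 19 alternatives, each past 1.5-fold the same way. Of the cut at 10000 UMIs only the deeper cells are among the alternatives, and some alternatives cannot move these ratios. Below that depth in IP, Mgp was at -2.92 and Thbs1 at -1.53, but Thbs2 at -0.17 and Eln at -0.77. Alternatives chosen after seeing the data were the cut at 10000 UMIs, leaving out shared barcodes (alone and with equal weights) and leaving out the richest cell.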
